A study of Mus musculus with 6 samples.

Results

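Uptake of sugars, short peptides and amino acids by the small intestine depends on membrane carriers of the enterocyte, the absorptive cell of the villus. Slc5a1 (SGLT1) couples glucose to sodium at the brush border, Slc2a5 (GLUT5) takes up fructose there, and Slc2a2 (GLUT2) passes sugars on toward the blood. Slc15a1 (PEPT1) carries short peptides together with protons. Slc6a19 takes up neutral amino acids, Slc1a1 takes up glutamate and aspartate, and Slc7a9 and Slc7a8 are light chains that work in pairs with the heavy chains Slc3a1 and Slc3a2. The 10 genes were chosen by name for these roles, with earlier results of these data known. Of these, 9 had a named probe among the 19053 genes of the arrays. None of the named probes carried Slc3a1, which is not analysed here.

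Intestinal RNA came from male C57 mice, which the sample labels give as 4 weeks old and collected 3.5 days after 7 Gy of total body radiation. One group of 3 mice was given PBS and the other group of 3 mice free ubiquitin (free Ub), the unconjugated protein, after radiation, with 1 Illumina array per mouse. The study's methods and legends give an older age and an earlier time. Its general methods place injection before radiation unless another order is stated. The gut segment and the dose of free Ub are not given in the labels, and the 6 arrays hold no unirradiated intestine, so that each difference below is free Ub minus PBS after radiation.

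All values are log2 signals as normalized by the authors, and each gene was read on the probe with the highest mean over the 6 arrays, called its brightest probe. Because each probe binds with its own strength, a level was compared between groups on 1 probe and never between genes. In whole tissue, fewer cells of a type and less RNA per cell cannot be told apart. Of the markers of the proximal small intestine, Lct read 11.16 to 11.87 over the 6 arrays, Slc40a1 12.59 to 13.67, Cybrd1 5.20 to 7.75 and Gata4 3.66 to 5.54. Of the ileal markers, Fabp6 and Slc10a2 were listed at the floor, the lowest value of an array, on all 6, while Fgf15 read 1.71 to 3.80 and Enpep 4.43 to 5.10. Since these are different probes, their levels do not tell the segment. The abundant enterocyte genes Fabp1 and Fabp2 were also listed at or near the floor, at most 2.01 and 1.78, whereas the enterocyte markers Vil1 and Apoa4 read 12.49 to 12.87 and 14.14 to 14.44.

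The bases upstream of a start site show which letters known to be bound by intestinal regulators lie near these genes. In the RefSeq sequences of build GRCm38.p6, all 10 genes had an entry, with 11 start sites in all. The windows of Slc6a19, Slc3a2 and Slc7a9 lie within the annotated span of the gene, and those of Slc7a9 overlap each other. The 250 bases before each start were searched on both strands for GTTAAT (part of the HNF1 site), TTTATG (CDX), CACGTG (E-box) and CAAAGT (part of the HNF4 site), motifs that do not overlap in these windows. The windows of the 3 measured transporters with a match are shown, 5′ to 3′ on the strand of the gene, with the match in capitals (ACTTTG is CAAAGT on the other strand). They lie at chr3:28697653-28697902 (Slc2a2, plus strand), chr14:121505255-121505504 (Slc15a1, minus strand) and chr5:33103969-33104218 (Slc5a1, plus strand).
Slc2a2: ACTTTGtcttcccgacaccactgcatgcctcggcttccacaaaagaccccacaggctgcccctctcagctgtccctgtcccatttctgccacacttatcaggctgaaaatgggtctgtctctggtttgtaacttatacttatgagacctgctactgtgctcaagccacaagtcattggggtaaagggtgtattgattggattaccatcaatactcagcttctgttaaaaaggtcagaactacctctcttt
Slc15a1: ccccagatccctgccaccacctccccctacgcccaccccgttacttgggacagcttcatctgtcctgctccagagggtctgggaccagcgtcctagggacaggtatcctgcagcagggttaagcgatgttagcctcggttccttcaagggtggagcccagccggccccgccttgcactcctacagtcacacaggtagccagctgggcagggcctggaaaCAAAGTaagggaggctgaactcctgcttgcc
Slc5a1: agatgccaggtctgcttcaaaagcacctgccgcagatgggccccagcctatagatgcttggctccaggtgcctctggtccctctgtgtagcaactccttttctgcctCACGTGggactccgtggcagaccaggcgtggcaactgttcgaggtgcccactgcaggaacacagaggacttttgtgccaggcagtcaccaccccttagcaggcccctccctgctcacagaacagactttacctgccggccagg

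The HNF4 letters CAAAGT were found upstream of Slc2a2, Slc15a1 and Slc3a1, that is in 3 of the 11 windows, beside 12.6% of 32851 windows of all genes. The E-box upstream of Slc5a1 was the 1 match among the 11 windows, beside 6.02% of all. Neither GTTAAT nor TTTATG was present in the 11 windows, beside 6.43% and 10.8% of all. Of the factors that bind such letters, Hnf4a had a mean of 11.06 ± 0.18 in the PBS group and 11.04 ± 0.31 in the free Ub group (SD, n = 3 each). Mlxipl, the carbohydrate response factor that binds E-boxes, had 10.54 ± 0.12 and 10.54 ± 0.17. Hnf4g differed by -0.09, Cdx1 by -0.15 and Cdx2, described below, by -0.27.

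No transporter passed the test for a difference between free Ub and PBS on its brightest probe. In limma 0 of the 9 genes had an adjusted p under 0.05, where 0.0530% of all 45281 probes did. Of the 8860 genes with a mean above 4, which include all 9, 0 did. At an unadjusted p under 0.05 in limma 0 of the 9 passed, where 5.73% of all genes and 6.07% of the 6141 genes with a mean above 6 did. In mean signal 5 of the 9 were higher with free Ub and 4 lower, with a median difference of 0.06 log2 beside -0.0022 for all genes and -0.01 for genes with a mean above 6. Every difference was smaller than 1 log2, that is less than 2-fold. For 1 gene, exact permutation of 3 against 3 mice cannot give a p below 0.1.

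**Figure D1:**
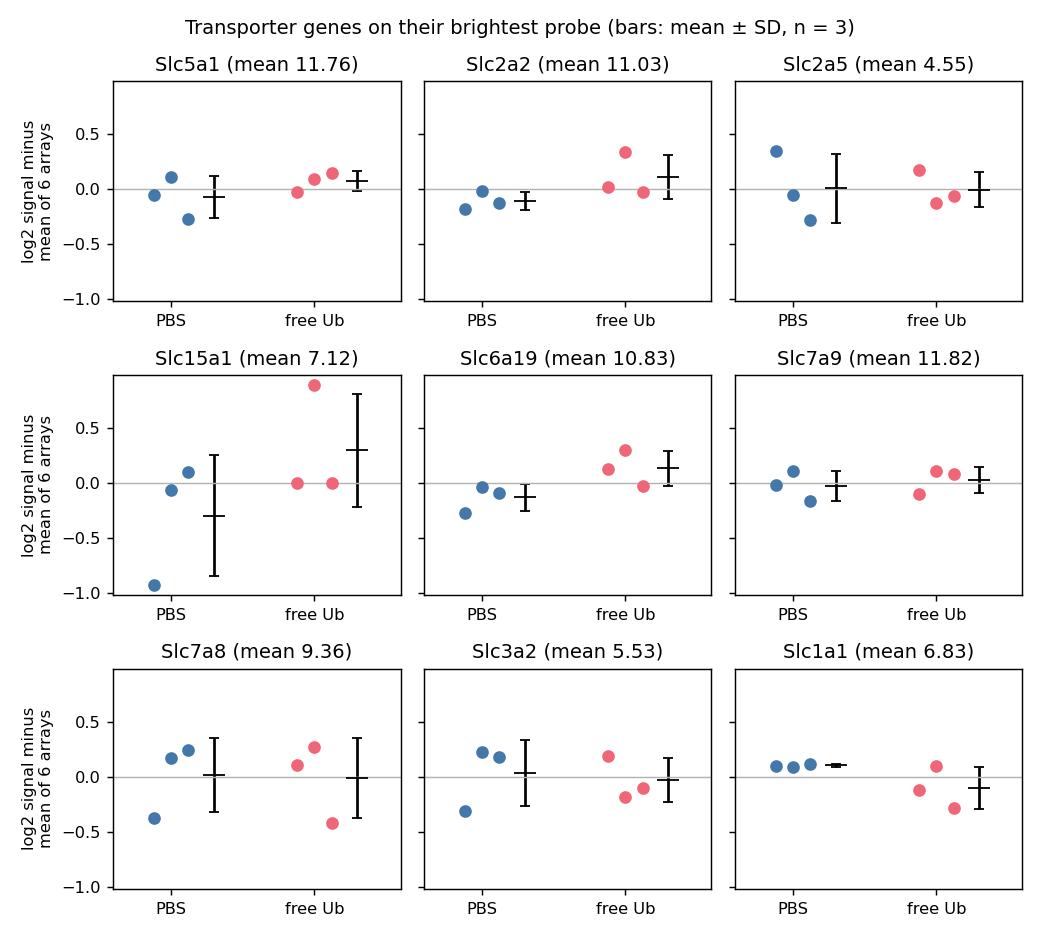
Log2 signal of each of the 9 transporters on its brightest probe, minus the mean of the 6 arrays, in the 3 PBS samples (blue) and the 3 free Ub samples (red); points in a group run from replicate 1 to 3, and bars show mean ± SD. The groups are apart for Slc6a19 alone, and Slc15a1 has the widest range, 1.82 log2.

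Among the sugar carriers, Slc5a1 had log2 signals of 11.71, 11.87 and 11.49 with PBS and of 11.73, 11.85 and 11.91 with free Ub. The groups overlapped, and the difference was 0.14 (95% interval -0.17 to 0.46; limma, adjusted p = 0.872). Slc2a5 was dim, with 4.90, 4.50 and 4.27 with PBS and 4.73, 4.42 and 4.49 with free Ub. The free Ub samples lay within the range of the PBS samples, and the difference was -0.01 (95% interval -0.52 to 0.50). Slc2a2 had 10.85, 11.01 and 10.90 with PBS and 11.05, 11.37 and 11.01 with free Ub on its brightest probe. The groups overlapped by less than 0.01 log2, at the lowest free Ub and the highest PBS sample, with a difference of 0.22 (95% interval -0.10 to 0.54; adjusted p = 0.872).

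Slc15a1, the peptide carrier, had the largest difference on a brightest probe, 0.59 log2 or 1.51-fold, with the widest interval (95% interval -0.49 to 1.68; limma, adjusted p = 0.872). It read 6.19, 7.06 and 7.22 with PBS and 7.12, 8.01 and 7.12 with free Ub. One PBS sample lay below all others and 1 free Ub sample above all others, and the other 4 samples lay between 7.06 and 7.22. The difference was 0.28 without PBS replicate 1 and 0.30 without free Ub replicate 2. Its other probe gave 6.23, 6.86 and 7.38 with PBS and 7.41, 7.63 and 7.17 with free Ub, a difference of 0.58 (95% interval -0.31 to 1.47). The genes with a profile most like that of Slc15a1 over the 6 arrays, among 6140 others with a mean above 6, were Selenop, Dyrk2 and Tfcp2l1. Their centred log2 values differed from those of Slc15a1 by a root mean square of 0.16, 0.18 and 0.19. Selenop, a secreted selenium carrier, read 10.40, 11.14 and 11.26 with PBS and 11.15, 11.75 and 10.93 with free Ub.

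Slc6a19, the carrier of neutral amino acids, was the 1 gene of the 9 whose groups did not overlap on the brightest probe. It read 10.55, 10.80 and 10.74 with PBS and 10.96, 11.13 and 10.80 with free Ub. The lowest free Ub sample and the highest PBS sample lay 0.01 log2 apart. The difference was 0.27, or 1.20-fold (95% interval -0.03 to 0.57; limma, adjusted p = 0.872; exact permutation p = 0.1, two-sided). Groups apart in this direction were found for 3.73% of all genes and 4.35% of those with a mean above 6. On the other probe of Slc6a19 the groups overlapped, with 7.70, 8.06 and 7.67 with PBS and 8.21, 8.41 and 7.65 with free Ub.

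The light chains Slc7a9 and Slc7a8 showed little difference on their brightest probes. Slc7a9, which exchanges cystine and basic amino acids at the brush border, read 11.79, 11.92 and 11.65 with PBS and 11.71, 11.93 and 11.90 with free Ub. The groups overlapped with a difference of 0.06 (95% interval -0.21 to 0.32). Slc7a8, which works on the basolateral side, read 8.98, 9.53 and 9.61 with PBS and 9.47, 9.63 and 8.94 with free Ub. One sample of each group was low, and the difference was -0.03 (95% interval -0.74 to 0.69). Its partner Slc3a2, the heavy chain of several exchangers, read 5.22, 5.76 and 5.71 with PBS and 5.72, 5.34 and 5.43 with free Ub, a difference of -0.07 (95% interval -0.59 to 0.45).

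Slc1a1, the carrier of acidic amino acids, had the lowest difference of the 9. It read 6.94, 6.92 and 6.95 with PBS and 6.71, 6.94 and 6.55 with free Ub on its brightest probe. The PBS samples lay within 0.03 log2 of each other, and the second free Ub sample lay among them. The difference was -0.21 (95% interval -0.49 to 0.08; limma, adjusted p = 0.872), and ranged from -0.31 without free Ub replicate 2 to -0.11 without free Ub replicate 3. A second probe gave 4.63 ± 0.26 in the PBS group and 4.67 ± 0.29 in the free Ub group (SD, n = 3 each), and the dimmest was at the floor on all 6 arrays.

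Dimmer probes of Slc2a2 and Slc7a9 gave larger differences than the brightest probes of the same genes. The 9 transporters have 19 probes, of which 17 were above the floor on all 6 arrays. At an unadjusted p under 0.05 in limma 4 of the 19 were higher and 0 lower with free Ub, where 2.50% of all probes were higher. The 4 are 3 of the 4 probes of Slc2a2 and 1 of the 3 probes of Slc7a9, so that they stand for 2 genes, and none had an adjusted p under 0.05 (0.704 to 0.872). Probes of 1 gene share its transcript and its samples and are not independent.

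The second probe of Slc2a2 read 8.19, 8.84 and 9.05 with PBS and 9.53, 9.48 and 9.27 with free Ub. The third read 7.75, 8.24 and 8.43 with PBS and 8.95, 8.94 and 8.83 with free Ub. On both, each free Ub sample was above each PBS sample, as on the brightest probe of 3.73% of all genes. The differences were 0.73 (95% interval 0.06 to 1.41) and 0.77 (95% interval 0.25 to 1.29), or 1.66- and 1.70-fold. On the third probe the difference stayed between 0.57 and 0.91 with each sample left out in turn, with an unadjusted p in limma of 0.00379 to 0.0464. On the second the difference was 0.48 without PBS replicate 1, and the unadjusted p reached 0.106 without free Ub replicate 1, and was also above the threshold when PBS replicate 2 or either of the remaining free Ub samples was left out. The dimmest probe of Slc2a2 was at the floor in 2 PBS samples and read 1.55 in the other, against 1.44, 3.02 and 2.55 with free Ub.

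The dimmest probe of Slc7a9 read 6.08, 6.40 and 6.89 with PBS and 7.59, 7.18 and 7.03 with free Ub. The groups were apart, with a difference of 0.81 or 1.75-fold (95% interval 0.08 to 1.53). On the brightest probe, 3.73% of all genes were apart in this direction. Its middle probe read 10.85, 11.18 and 10.95 with PBS and 11.13, 11.21 and 11.03 with free Ub, a difference of 0.13. On the dimmest probe the unadjusted p in limma stayed under the threshold without PBS replicate 3 (0.0148), and was 0.0504 to 0.0971 without any of the other 5 samples. The second probe of Slc7a8 read 5.69, 7.33 and 7.18 with PBS and 7.38, 7.62 and 6.50 with free Ub, a difference of 0.44 in overlapping groups.

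The probes of 1 gene were set against each other within each sample. For Slc2a2, the difference between groups was larger by 0.55 on the third probe than on the brightest (exact permutation p = 0.1, the smallest possible) and by 0.51 on the second (exact permutation p = 0.2). For the dimmest probe of Slc7a9 it was larger by 0.75 (exact permutation p = 0.2). The other 5 pairs of probes gave -0.01 to 0.46 with an exact permutation p of 0.3 to 1. The 8 comparisons were made after the values were seen. Across the 1638 genes with at least 2 probes of a mean above 6, the dimmest of these probes had the larger absolute difference in 61.5%, with medians of 0.16 on the dimmest and 0.11 on the brightest probe.

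**Figure D2:**
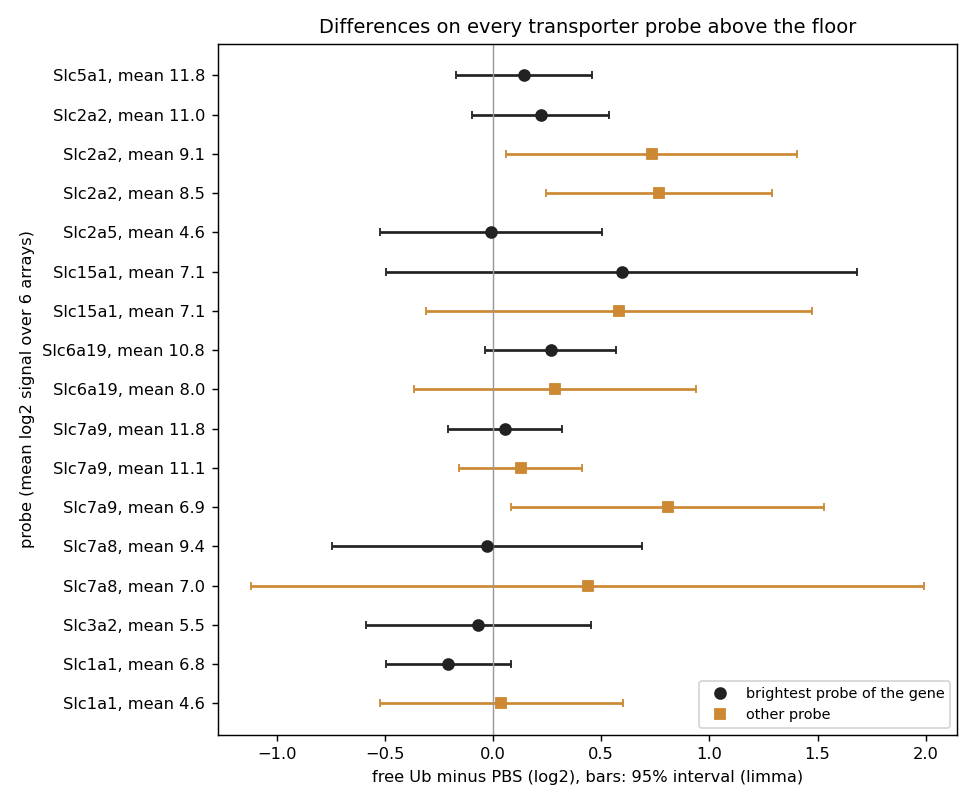
Difference between free Ub and PBS on each of the 17 transporter probes above the floor on all 6 arrays, with its 95% interval from limma; black circles are brightest probes and orange squares other probes, ordered by gene. The intervals of 2 Slc2a2 probes and 1 Slc7a9 probe lie above 0, while those of the brightest probes include 0.

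PBS replicate 1 was the lowest of the 6 samples on 11 of the 17 probes, and free Ub replicate 2 was the highest on 10. On the brightest probes, 1 per gene, PBS replicate 1 was lowest on 4 of 9, PBS replicate 3 on 3 and free Ub replicate 3 on 2, and free Ub replicate 2 was highest on 5. Among 6140 genes above the floor with a mean above 6, PBS replicate 1 was lowest for 17.9% and free Ub replicate 2 highest for 13.5%. The summed level of 5 stroma markers was also highest in PBS replicate 1, at 12.80 log2, where the other PBS samples had 11.55 and 11.89 and the free Ub samples 12.08 to 12.21. Most of that sum is Acta2, smooth muscle actin, which read 12.58 in that sample and 11.33 to 12.03 in the others. Des and Col3a1 were also highest there, whereas Pecam1 was lowest there, at 5.43, and Col1a1 was highest in PBS replicate 3. The summed level of the 8 enterocyte markers was 15.76 to 15.99 with PBS and 15.77 to 15.88 with free Ub. Its highest value, 15.99, was in PBS replicate 1 as well. Of the 8 markers Apoa1 alone was highest there, at 14.37 against 13.75 to 13.98 in the other samples. Apoa4 was highest in PBS replicate 2, at 14.44. The 5 markers of exocrine pancreas, an organ that lies against the duodenum, ran from 12.95 to 16.11 with PBS and from 10.09 to 15.92 with free Ub, lowest in free Ub replicate 3. The part of these markers in the transporter values was not tested.

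**Figure D3:**
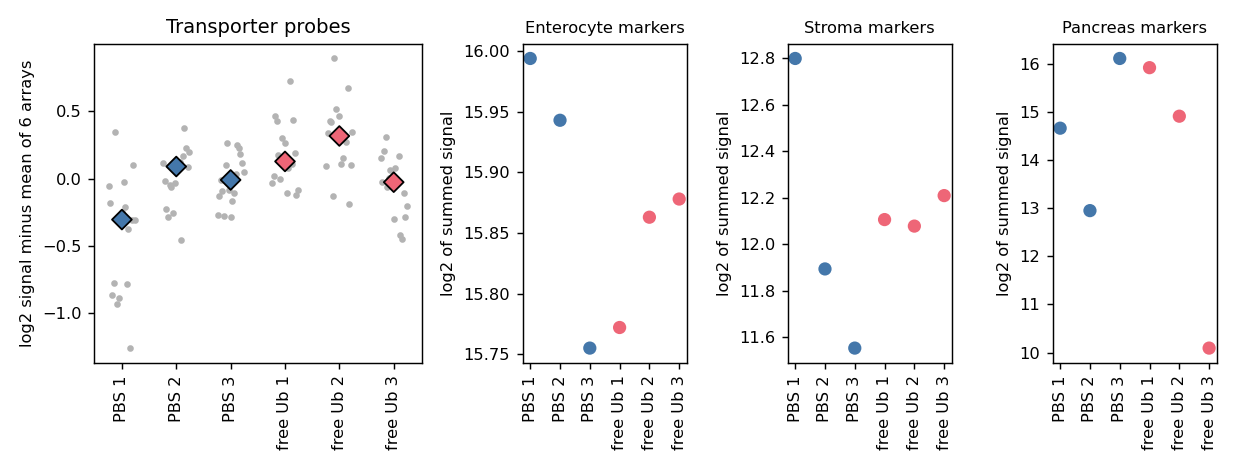
Left, the 17 transporter probes above the floor in each sample as log2 signal minus the mean of the 6 arrays (grey) with the median of each sample (diamonds); right, the log2 of the summed signal of enterocyte, stroma and pancreas markers in the same samples, each panel on its own scale. The transporter median is lowest in PBS replicate 1, where the stroma sum is highest, 12.80, and the enterocyte sum as well, 15.99. Of the enterocyte markers Apoa1 alone is highest there.

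Of 16 other sugar carriers measured, 3 were higher with free Ub and 12 lower, and 1 stayed at the floor throughout, where 8440 of all 19053 genes were higher and 9473 lower. The median difference was -0.26, and 1 of the 12, Slc5a2, was above the floor on 1 PBS array alone. At an unadjusted p under 0.05 in limma 2 of the 16 were lower and 0 higher, where 647 and 445 of all 19053 genes were. Slc2a8, an intracellular glucose carrier, had a mean of 4.58 ± 0.39 in the PBS group and 3.63 ± 0.11 in the free Ub group (SD, n = 3 each). The difference was -0.95 (limma, adjusted p = 0.635) in groups that were apart, as in this direction for 1274 of all 19053 genes. Slc2a12, the other, was dim throughout (difference -0.40). Slc5a4b, a relative of Slc5a1, and Slc2a9, a urate carrier, differed by -0.61 each with overlapping groups. The 4 other peptide carriers gave 0 at that threshold, with Slc15a3 at -0.47 and Slc15a4 at 0.07.

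Of 32 measured amino acid carriers beside the transporters above, 9 were higher and 20 lower, and 3 stayed at the floor throughout, with a median of -0.09. Of all 19053 genes, 8440 were higher and 9473 lower. At an unadjusted p under 0.05 in limma 3 of the 32 were lower and 0 higher, where 647 and 445 of all genes were. Slc7a11, which exchanges cystine for glutamate, had a mean of 4.65 ± 0.36 in the PBS group and 3.90 ± 0.26 in the free Ub group (difference -0.75, adjusted p = 0.862). Slc7a4 differed by -0.17, and the dim Slc6a20b, a relative of Slc6a19, was at the floor on 2 free Ub arrays. Slc38a1, a glutamine carrier, was higher by 0.81 in groups that were apart (limma, adjusted p = 0.872). It read 3.43, 4.19 and 4.53 with PBS and 4.63, 4.74 and 5.22 with free Ub. Groups were apart in this direction for 711 of all 19053 genes.

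The partners and ion pumps behind uptake differed by at most 0.15 log2. Slc9a3, the sodium and proton exchanger of the brush border, differed by -0.15, its scaffold Pdzk1 by 0.09 and Fxyd3 by -0.12, and 0 of 6 measured passed an unadjusted p under 0.05 in limma. Among 15 measured regulators 8 were higher and 7 lower. As lower 1 passed that threshold, where 647 of all 19053 genes did: Cdx2, the homeobox factor that sets intestinal identity. It read 9.86, 9.79 and 9.83 with PBS and 9.42, 9.67 and 9.57 with free Ub. The difference was -0.27 in groups that were apart (95% interval -0.47 to -0.07, adjusted p = 0.75 in limma). Free Ub lay below PBS without overlap for 1274 of all 19053 genes, and for 358 of the 6141 with a mean above 6. Atf4, which drives amino acid carrier genes under stress, differed by -0.14 and Rab11a, a GTPase of recycling vesicles, by 0.28.

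Enzymes that handle the absorbed sugar gave 5 higher and 4 lower of 9 measured. Pklr, the pyruvate kinase of liver and gut, read 6.73, 6.98 and 6.98 with PBS and 7.65, 7.41 and 7.22 with free Ub. The difference was 0.53 (limma, adjusted p = 0.726) in groups that were apart. Groups were apart in this direction for 711 of all 19053 genes. Pklr was the 1 to pass an unadjusted p under 0.05 in limma. Tkfc, a kinase of fructose breakdown, differed by -0.55 and Fbp1, of glucose synthesis, by 0.20. Over these 6 lists together 1 of 82 measured genes was higher and 6 were lower at that threshold, where 445 of all 19053 genes were higher and 647 lower (5.73% in either direction), and 0 had an adjusted p under 0.05.

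Hydrolases of the brush border and genes of lipid absorption, other products of the mature enterocyte, were divided in direction. Of 12 measured hydrolases 5 were higher and 7 lower, with a median of -0.03. Enpep, aminopeptidase A, was lower at an unadjusted p under 0.05 in limma (difference -0.35), where 647 of all 19053 genes were. Anpep and Mep1b, peptidases of the same membrane, differed by -0.41 and 0.12. Of 15 genes of lipid absorption 10 were higher and 5 lower, with a median of 0.10 beside 0.06 for the transporters. Among the 5, Fabp1 and Fabp2 were at the floor on 4 and 3 arrays. Plin2, which coats lipid droplets, read 6.85, 6.80 and 6.84 with PBS and 7.14, 7.10 and 7.17 with free Ub, a difference of 0.31. It was the 1 of the 15 with an unadjusted p under 0.05 in limma (0.000384, adjusted p = 0.159), where 445 of all 19053 genes passed as higher. Dgat2 differed by 0.31 and Apoa4 by -0.14.

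**Figure D4:**
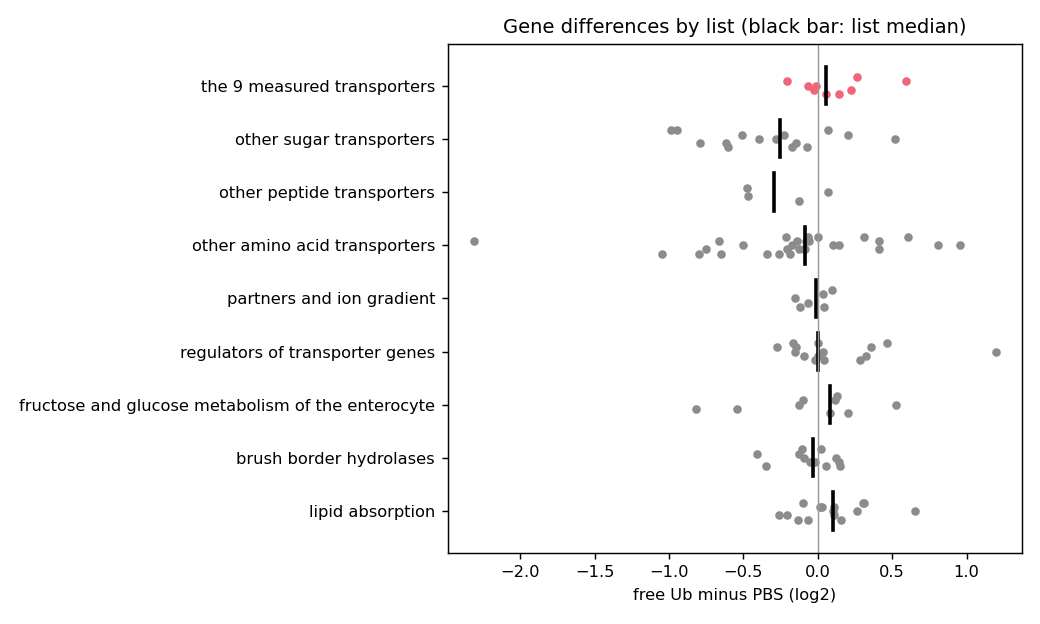
Free Ub minus PBS in log2 signal for each gene of the 9 transporters (red) and of 8 related lists (grey), on the brightest probe and without genes at the floor on all 6 arrays; black bars are list medians over all measured genes. The transporters lie between -0.21 and 0.59 and the other sugar carriers have a median of -0.26.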

How the data were processed

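The authors hybridized intestinal RNA to Illumina MouseWG-6 v2 BeadChips and processed the signals with cubic-spline normalization in GenomeStudio (version and background handling not given in the sources used here). The deposited values were read as log2 from their highest value, 14.49, and the 6 arrays share that value and their upper quartile. Of 45281 probes, 34885 had 1 symbol in the platform annotation, 18 several and 10378 none, and symbols were updated to RefSeq by gene ID. Samples were grouped by their labels. Every probe was fitted with limma 3.58.1 under R 4.3.3, free Ub against PBS with no covariate (lmFit, eBayes), and the two-sided p-values were adjusted by Benjamini-Hochberg across the whole array. "At the floor" means no more than 0.01 above the lowest value on the same array, which held for 32.2% to 33.7% of the probes of an array. No detection p-values are in the table, so precision rests on the number of arrays and on brightness: the median SD within groups was 0.34 log2 for genes with a mean of 4 to 6 and 0.16 for those above 10. Nothing states whether litters or cages were shared.

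The members, 20 lists of genes and tests were chosen with earlier results of these data known. From the lists up to 3 genes with the smallest p and a mean above 4 are named, and members on every probe. Slc2a12, Slc6a20b, Slc5a2, Slc38a5, Hnf4a, Mlxipl, Hnf4g, Cdx1 and the markers beyond that number were chosen after their values were seen. Alternatives were quantile normalization, median centring, a floor of 4, a filter at the median of probe means, the replicate block, the methods' Student's t-test in both forms, an intensity trend, array weights, averaging the probes of each gene and leaving out each sample. The procedure was tested on simulated data.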

Additional observations from a re-analysis of the deposited data

How the results depend on the processing

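No transporter passed an adjusted p under 0.05 under any of the 17 alternatives. The count at an unadjusted p under 0.05 in limma, 0 as reported, was 2 when the probes of each gene were averaged (Slc2a2 and Slc7a9), 1 with each gene's second brightest probe (Slc2a2, an alternative chosen after seeing the data), and 0 to 1 with each sample left out (Slc1a1 without free Ub replicate 2 and Slc6a19 without free Ub replicate 3). The median difference of the transporters was 0.205 with averaged probes, and 0.04 to 0.15 with each sample left out. For the 6 wider lists the count at that threshold, 7 as reported, was 3 for probes above the median of probe means, 4 with the replicate block, 2 with the methods' t-test paired by the replicate block, and 4 to 9 with each sample left out (4 without free Ub replicate 3).

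Same-numbered samples did not deviate together (correlations of -0.0028, 0.02 and -0.09 over 21349 probes), so the numbers were not taken as pairs; with the replicate block 0 transporters passed at either threshold, and the unadjusted p of the 2 brighter of the other Slc2a2 probes was 0.0999 and 0.0461. The signs of small differences were not stable. Slc2a5 was 0.15 with array weights and -0.15 to 0.16 with each sample left out. Slc7a8 was 0.205 with the mean of its probes, 0.44 on its second probe and -0.22 to 0.18 with each sample left out. Slc1a1 was 0.038 on its second probe, and with each sample left out Slc3a2 was -0.24 to 0.030 and Slc7a9 -0.013 to 0.12. Slc5a1, Slc2a2, Slc15a1 and Slc6a19 kept a higher mean with free Ub under all 17, but many of the 17 could not change that sign. The floor of 4, the filter, the replicate block, the intensity trend and both t-tests leave these differences as they are. Quantile normalization and median centring hardly moved arrays that already share their upper quartile. Slc5a1 has 1 probe, so that averaging and the second brightest probe repeat it. In size Slc5a1 ranged from 0.041 without PBS replicate 3 to 0.24 with array weights. Slc2a2 ranged from 0.11 without free Ub replicate 2 to 0.88 with averaged probes (1 of the 4 was at the floor in 2 PBS samples, so that this size is not measured). Slc15a1 was 0.36 with array weights. Dim probes limit what can be read: the interval of the dimmest Slc2a2 probe ran from 0.08 to 3.55.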

Other observations

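None of the cell type markers that frame the transporters had an adjusted p under 0.05 in limma, and several differed by more than any transporter did on its brightest probe. All 5 measured pancreas markers were lower in mean with free Ub (median -0.97, all with overlapping groups). Trpm5, an ion channel of tuft cells, read 2.41, 4.14 and 3.37 with PBS and 4.20, 4.75 and 4.68 with free Ub. The difference was 1.24 in groups that were apart, as in this direction for 711 of all 19053 genes. Dclk1 and Pou2f3 of the same cells differed by 0.02 and -0.32. Of the proximal markers, Cybrd1, Gata4 and Lct differed by 0.85, 0.46 and 0.15 and Slc40a1 by -0.10.

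Of the 4 crypt markers measured 3 were higher and 1 lower, with Top2a at 0.41, Olfm4 at 0.19 and Lgr5 at -0.05. Olfm4, a gene of crypt base cells, ranged from 6.47 to 8.90 over the 6 samples. Of the 4 goblet markers 1 was higher, Clca1 (0.28), and 3 lower, among them Tff3 (-0.13) and Fcgbp (-0.35). Of the 4 enteroendocrine markers 3 were lower, Chga (-0.28), Sct (-0.27) and Cck (-0.20), and Chgb was higher (0.11). The stroma markers Col3a1, Pecam1 and Col1a1 differed by -0.32, -0.12 and -0.12, and Des and Acta2 by 0.06 each. The Paneth markers Lyz1, Mmp7 and Ang4 differed by -0.12, -0.14 and 0.08, and of the 8 enterocyte markers 3 were higher and 5 lower, with Vil1 at 0.12 and Apoa1 at -0.10. Of the T and B cell markers, Cd3e differed by -0.12 and Ptprc by 0.01, and Cd8a and Ms4a1 were at the floor on 2 arrays each. Of 3 colon markers 2 were higher and 1 lower, with Car4 at 0.0022.

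Slc38a5, a glutamine carrier picked out after its values were seen, moved with the pancreas genes from sample to sample. It read 4.92, 3.20 and 7.13 with PBS and 7.33, 5.32 and 2.32 with free Ub. Cpa1, a pancreatic protease, read 11.17, 9.06 and 13.13 with PBS and 12.92, 11.36 and 5.82 with free Ub, Ctrb1 11.87, 9.91 and 14.15 and then 13.98, 12.13 and 6.68, and Cela2a had its lowest value, 9.53, in free Ub replicate 3. For both Slc38a5 and Cpa1 the lowest sample was free Ub replicate 3, followed by PBS replicate 2, and the top pair was PBS replicate 3 and free Ub replicate 1.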
